A study of Mus musculus with 2 samples.

Results

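Toll-like receptors are membrane proteins that bind molecules of microbes, and some molecules released by damaged cells, and start inflammatory gene expression. One set of them sits on the cell surface and binds lipids and proteins of microbial envelopes, while another set sits in endosomes and binds nucleic acids. Coreceptors hand lipopolysaccharide, a lipid of bacterial outer membranes, to the surface receptor TLR4. In adipose tissue the receptors are carried by macrophages and other leukocytes, and at least TLR4 also by adipocytes and endothelial cells.

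The 10 genes described here are the surface receptors Tlr1, Tlr2 and Tlr4, the endosomal receptors Tlr3, Tlr7, Tlr8, Tlr9 and Tlr13, and the coreceptors Cd14 and Ly96. They were taken as the genes of these symbols with at least 1 probe set (a group of short probes against 1 transcript) that names no other gene. All 10 were on the array, with 16 probe sets of 45101 in all, and they are 10 of 18193 genes with such a probe set. The tissue was fat of inbred C57BL/6 mice, and it was compared between a normal diet (CE-2) and a high fat diet (HFD32) given from 6 to 18 weeks of age to induce obesity. Each diet was measured on 1 Affymetrix array of RNA pooled from 3 animals, so there are no replicates, no replicate check and no p-values. The number of arrays limits how precise any value is, and the spread between animals is unknown. Neither the fat depot nor the animals' sex is stated in the labels used.

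Values are log2 signals, and a difference is the high fat diet value minus the normal diet value, so that 1 is a 2-fold ratio. A gene is represented by its brightest probe set, and 11778 genes had a mean of both arrays at or above a floor of 5.44, the median of all probe sets. All 10 genes passed this floor, although Tlr1 lay under it on the normal diet array. The error quoted is the SD between the differences of probe sets of 1 gene (0.27 in log2 units), which covers the probes alone and not the animals or the hybridisation. As a background limit, 95% of 83 probe sets of smell, pheromone and bitter taste receptor genes lay under 4.92 with the normal diet and under 4.95 with the high fat diet. The adipocyte hormone gene Adipoq had 14.21 and 14.12 on the normal and high fat diet arrays, near the top of the scale on both. Transcripts of other organs differed between the arrays, with 13 of 13 hepatocyte markers lower after the high fat diet (median -5.04 with 5 of them, which were under background there, taken at the background limit) and 4 of 5 pancreas markers lower by 2-fold or more. Skeletal muscle markers were lower in 7 of 7 (median -1.97). Of 8 epididymis and testis markers 5 were higher and 3 lower, all by 2-fold or more. The 5 higher were Gpx5, Lcn8, Lcn9, Adam7 and Cst12 of the epididymis, and the 3 lower were Tnp1, Prm1 and Prm2 of the testis. None of these organ lists holds a receptor, and their part in the receptor values was not tested.

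All 10 genes had a higher signal on the high fat diet array, where 49.9% of all genes above the floor did, and 4 of 10 were at least 2-fold higher, where 3.28% of all genes were. The 4 were the endosomal receptors Tlr13, Tlr8 and Tlr7 and the surface receptor Tlr1. The other 6 had differences from 0.21 to 0.87. Of the 4, Tlr1 passed the floor only through its value on the high fat diet array. Tlr8 was only 0.12 over the floor on the normal diet array. With no floor, 4 of 10 were at least 2-fold higher, where 2.63% of 18193 genes were. The median of the 10 was 0.65, beside 0 over all genes. No member was lower, where 49.3% of all genes were. The 10 genes were chosen with earlier results of these data known, so these shares are a description and not a test.

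**Figure D1:**
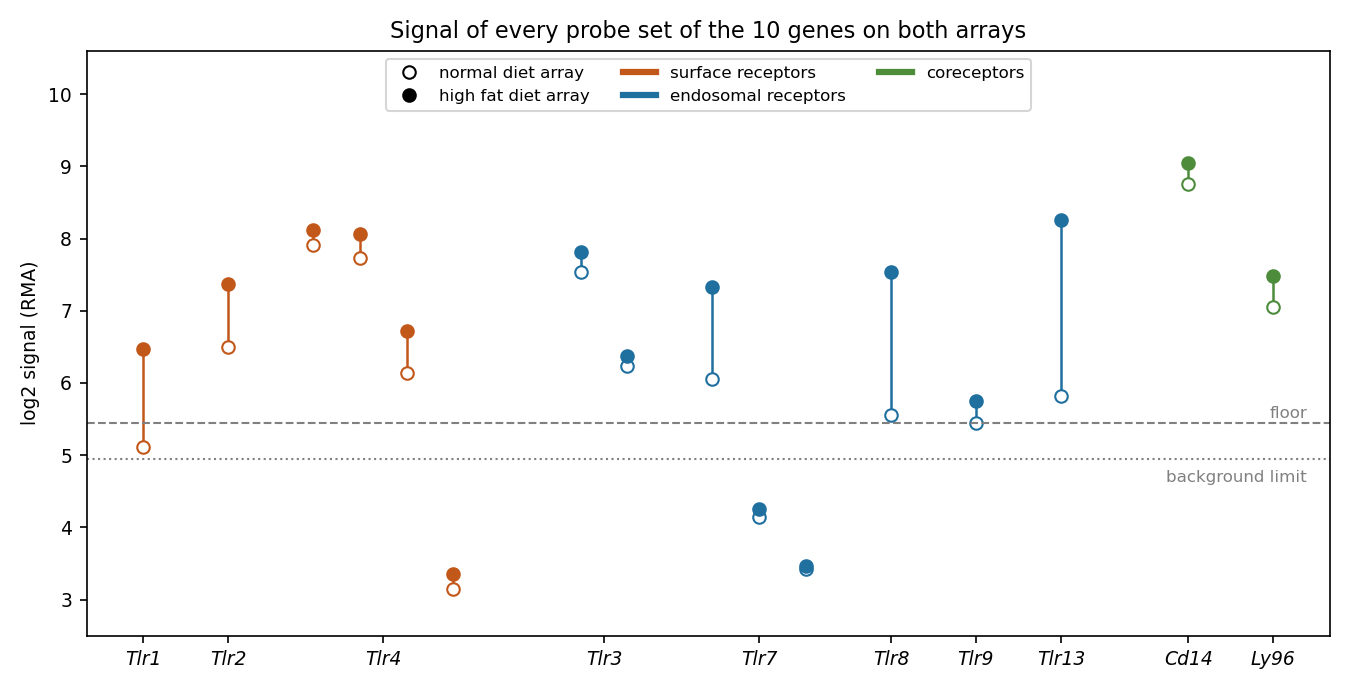
Log2 signal (vertical axis) of each of the 16 probe sets of the 10 genes, with open circles for the normal diet array, filled circles for the high fat diet array and colours for the role. Tlr13 and Tlr8 have the longest lines, from 5.82 to 8.25 and from 5.55 to 7.53, while the bright probe sets of Tlr4 and Cd14 barely move and 2 probe sets of Tlr7 and 1 of Tlr4 lie under the background limit.

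Among the surface receptors the difference was greatest for Tlr1. TLR1 pairs with TLR2 to bind bacterial lipopeptides that carry an additional acyl chain. Tlr1 had a log2 signal of 5.12 under the normal diet and 6.47 under the high fat diet, a ratio of 2.55. The lower of these values was only 0.20 above the background limit. Tlr2, the shared partner in receptors for lipopeptides, had 6.50 and 7.37, a ratio of 1.83. Its difference of 0.87 was 3.29 times the SD between probe sets. Tlr4, the receptor for lipopolysaccharide, had 7.91 and 8.12 on its brightest probe set, a ratio of 1.16 and less than that SD. The other probe sets of Tlr4 read 7.73 and 8.07, 6.14 and 6.72, and 3.15 and 3.35, the last pair under background. All 4 probe sets of Tlr4 were thus slightly higher on the high fat diet array, by 0.20 to 0.59.

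The endosomal receptors fell into a high and a low set. Tlr13, a mouse receptor for bacterial ribosomal RNA, had 5.82 under the normal diet and 8.25 under the high fat diet. This ratio of 5.41 was the largest of the 10 genes, and 0.34% of all genes above the floor had a difference at least as large. Tlr8, whose human counterpart binds breakdown products of single-stranded RNA, had 5.55 and 7.53, a ratio of 3.94. Of all genes, 0.70% reached its difference. Tlr7, a close relative of Tlr8 and a receptor for single-stranded RNA, had 6.06 and 7.33, a ratio of 2.42. The differences of these 3 genes were 2.44, 1.98 and 1.28, all more than 4 times the SD between probe sets.

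Tlr7 rests on 1 of its 3 probe sets. The other probe sets had 4.14 and 4.25 in one case and 3.43 and 3.47 in the other, under background on both arrays, and differed by 0.11 and 0.04. With the median over all probe sets of each gene, the difference of Tlr7 was 0.11. In that setting 3 of the 10 genes were at least 2-fold higher, where 2.97% of all genes were. In the RefSeq annotation of GRCm38.p6, Tlr7 and Tlr8 are neighbours on chromosome X, and Tlr13 lies elsewhere on the same chromosome.

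Tlr3 and Tlr9 made up the low set. Tlr3, which binds double-stranded RNA, had 7.54 and 7.81 on its brighter probe set and 6.23 and 6.37 on the other, differences of 0.27 and 0.14. Tlr9, which binds DNA with unmethylated CpG, had 5.45 and 5.75, a ratio of 1.23. The difference of Tlr9 was 0.30, and 19.6% of all genes had one at least as large. The grouping of the endosomal receptors by the kind of nucleic acid was made after their values were seen, so it is a description.

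Promoter windows are shown for genes with large differences, Tlr13, Tlr8 and Tlr1, and for genes with small ones, Tlr9 and Tlr3. The windows are RefSeq sequences of GRCm38.p6, each with 250 bases before and 50 bases after an annotated start. Of the 10 genes, 6 (Tlr1, Tlr2, Tlr3, Tlr8, Tlr9 and Tlr13) matched an entry. The choice was limited to these, so Tlr7 and Tlr4 could not be shown. Capitals mark matches on either strand to GAGGAA, the core bound by the myeloid factor PU.1, to TTGCNNAA, a form of the site of C/EBP factors, to GGANTTTCC, part of the kappaB site, or to GAAANNGAA, part of the interferon response element. The windows lie at chrX:106143025-106143324 on the plus strand for Tlr13, chrX:167264280-167264579 on the minus strand for Tlr8, and chr9:106222348-106222647 on the plus strand for Tlr9. Those of Tlr1 lie at chr5:64933509-64933808 (start A) and chr5:64932650-64932949 (start B) and that of Tlr3 at chr8:45410331-45410630, all on the minus strand.
Tlr13: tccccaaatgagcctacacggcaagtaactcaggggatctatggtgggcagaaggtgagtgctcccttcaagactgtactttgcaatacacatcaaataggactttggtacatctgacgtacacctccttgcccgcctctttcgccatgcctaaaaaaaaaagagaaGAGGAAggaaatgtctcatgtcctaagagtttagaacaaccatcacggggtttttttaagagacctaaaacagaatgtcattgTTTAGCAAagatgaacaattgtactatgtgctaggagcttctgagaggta
Tlr8: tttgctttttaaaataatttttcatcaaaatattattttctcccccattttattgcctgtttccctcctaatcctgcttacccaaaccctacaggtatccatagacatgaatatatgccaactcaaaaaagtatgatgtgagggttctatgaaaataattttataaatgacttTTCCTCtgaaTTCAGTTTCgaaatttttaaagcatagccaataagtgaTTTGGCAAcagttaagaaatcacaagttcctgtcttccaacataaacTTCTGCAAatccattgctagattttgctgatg
Tlr1 start A: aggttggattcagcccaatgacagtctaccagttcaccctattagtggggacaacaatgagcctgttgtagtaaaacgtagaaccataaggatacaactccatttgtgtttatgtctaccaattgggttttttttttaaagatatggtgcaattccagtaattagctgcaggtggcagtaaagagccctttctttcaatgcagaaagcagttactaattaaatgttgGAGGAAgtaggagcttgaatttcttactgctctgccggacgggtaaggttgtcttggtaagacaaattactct
Tlr1 start B: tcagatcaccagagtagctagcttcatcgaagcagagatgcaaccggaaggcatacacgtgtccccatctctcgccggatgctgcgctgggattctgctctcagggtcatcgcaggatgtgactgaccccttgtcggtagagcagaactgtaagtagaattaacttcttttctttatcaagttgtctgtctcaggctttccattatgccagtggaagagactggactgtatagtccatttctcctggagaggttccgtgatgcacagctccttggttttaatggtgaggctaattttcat
Tlr9: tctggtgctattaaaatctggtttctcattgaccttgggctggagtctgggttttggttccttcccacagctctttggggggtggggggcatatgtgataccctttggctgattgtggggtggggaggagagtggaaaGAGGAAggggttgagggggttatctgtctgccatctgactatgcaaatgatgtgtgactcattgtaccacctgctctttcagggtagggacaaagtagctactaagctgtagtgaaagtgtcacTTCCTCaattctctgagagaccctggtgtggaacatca
Tlr3: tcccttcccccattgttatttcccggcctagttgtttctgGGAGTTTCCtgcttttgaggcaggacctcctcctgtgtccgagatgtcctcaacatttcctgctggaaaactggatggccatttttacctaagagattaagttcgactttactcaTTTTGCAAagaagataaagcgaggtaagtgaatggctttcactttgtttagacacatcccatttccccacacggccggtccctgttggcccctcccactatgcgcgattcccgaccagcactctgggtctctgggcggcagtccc

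The PU.1 core occurred once in the windows of Tlr13 and Tlr8 and in start A of Tlr1, and 2 times in that of Tlr9. It was not in the windows of Tlr2 and Tlr3 or in start B of Tlr1. Of 32851 promoter windows of this length, 28.3% hold at least 1 match to it. The C/EBP form occurred once in Tlr13, 2 times in Tlr8 and once in Tlr3, and 10.8% of all windows hold it. The kappaB form was found in the window of Tlr3 alone among the 6 genes, and 1.25% of all windows hold it. The interferon response form was found in that of Tlr8 alone, and 8.56% of all windows hold it. No match overlapped another. A match is a stretch of letters and not a measured site, and genes with large and with small differences both had matches.

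The coreceptors differed little. Cd14, which takes up lipopolysaccharide and passes it on, had 8.76 under the normal diet and 9.04 under the high fat diet, a ratio of 1.22. Ly96 encodes MD-2, the protein that holds lipopolysaccharide on TLR4, and had 7.05 and 7.48, a ratio of 1.35. Their differences, 0.29 and 0.43, lay near that of Tlr4. On the brightest probe sets, the 3 parts of the lipopolysaccharide receptor thus ranged from 0.21 to 0.43. Dimmer probe sets of Tlr4 above background had 0.33 and 0.59.

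Surface and endosomal receptors overlapped in their differences. The surface receptors ran from 0.21 to 1.35 with a median of 0.87, and the endosomal receptors from 0.27 to 2.44 with a median of 1.28. The 2 coreceptors had a median of 0.36, within both ranges. With the median over all probe sets, which lowers Tlr7, the endosomal median was 0.30. In the order of differences Tlr13 stood above Tlr8 by 0.46 and Tlr8 above Tlr1 by 0.63. A gap between 2 genes has an SD of 0.38 from the probes alone. Tlr1 and Tlr7 lay 0.07 apart, and the step from Tlr7 to Tlr2 was 0.40 and from Tlr2 to Ly96 0.44. The last 5 genes, Ly96, Tlr9, Cd14, Tlr3 and Tlr4, followed each other by 0.13 or less and were not distinguishable by that error.

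**Figure D2:**
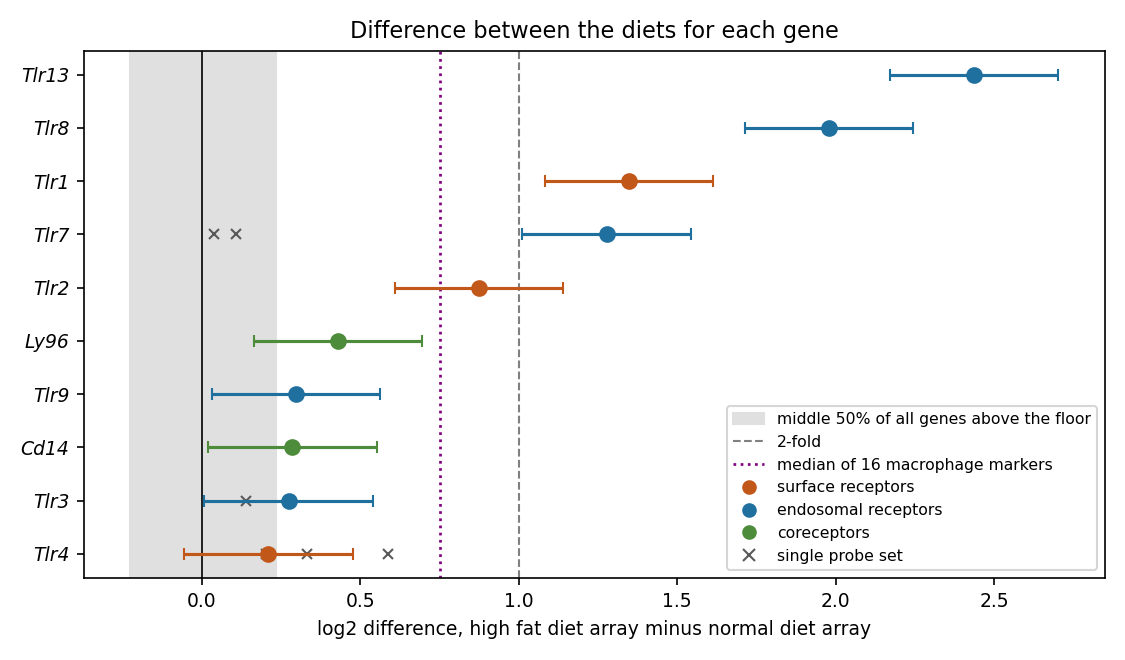
Log2 difference between the diets (horizontal axis) of each gene in order, with bars of 1 SD (0.27) for the error between probe sets of 1 gene and crosses for single probe sets. Tlr13, Tlr8, Tlr1 and Tlr7 lie past the 2-fold line, and Tlr2 lies between that line and the median of macrophage markers (0.75), while the last 5 genes lie at or near the grey band that holds the middle 50% of all genes.

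The spread of differences may depend on signal level, so each difference was also set against genes of a similar level. These were genes whose mean lay within 0.5 on the log2 scale. Near Tlr13, 0.51% of 2333 genes had a difference at least as high, and near Tlr8 1.37% of 2197 genes did. The shares were 2.06% near Tlr1, 2.57% near Tlr7 and 5.08% near Tlr2. They were 13.2% for Ly96 and 26.7% for Tlr4, with Cd14, Tlr3 and Tlr9 between these. Thus the order of the genes was nearly the same with and without regard to level.

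**Figure D3:**
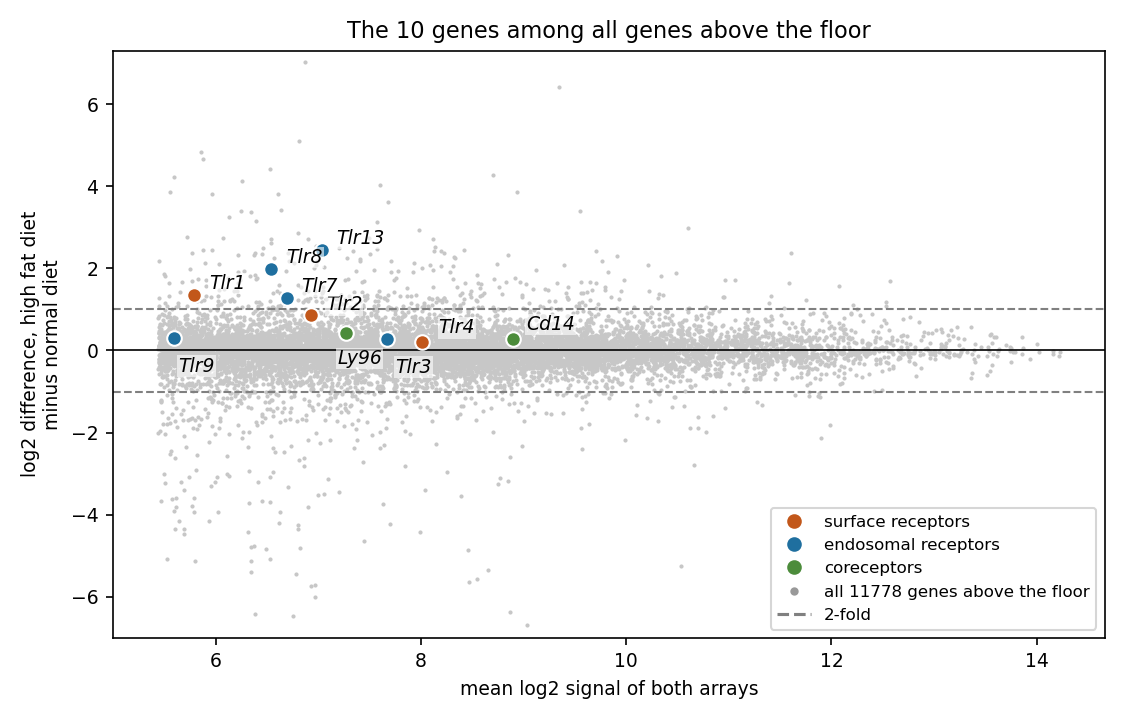
Difference between the diets against the mean signal of both arrays, for the 10 genes in colour and all 11778 genes above the floor in grey. The genes past 2-fold have means in the dimmer part of the scale, and Tlr4 and Cd14, farther to the right, lie close to 0.

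Macrophage markers were higher on the same array in 15 of 16 genes, 7 of them at least 2-fold. Their differences ran from -0.40 to 2.30 with a median of 0.75, and their mean log2 signal was 9.59 and 10.51. Cd68, a lysosomal glycoprotein of macrophages, had 2.30, the signalling adaptor Tyrobp 1.72 and the surface marker Adgre1 1.65, while Mertk, a receptor for dying cells, had -0.40. Csf1r, the receptor that macrophages need to survive, had 0.61. Against the median of this list, Tlr13 was higher by 1.68, Tlr8 by 1.23, Tlr1 by 0.60, Tlr7 by 0.52 and Tlr2 by 0.12. Ly96, Tlr9, Cd14, Tlr3 and Tlr4 lay below it, so that 5 genes stood on each side. The markers' part in the receptor values was not tested, and in pooled tissue RNA more cells of a type and more RNA per cell cannot be told apart.

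Other cells that carry these receptors showed a mixed picture. Of 6 dendritic cell markers, 5 were higher and the median was 0.35, led by Itgax, the CD11c chain that macrophages of fat also carry (2.42), and Cd83 (1.19). Markers of plasmacytoid dendritic cells, which depend on TLR7 and TLR9, had only 3 genes above the floor. These were Bst2 at 0.17, Klk1 at 0.10, which is thus the median, and Tcf4 at -0.39. Siglech, a more specific marker of those cells, lay below the floor at 5.21 and 5.26, and Ccr9 and Spib were under background on both arrays. B cells carry TLR9, and their markers Ms4a1 and Cd79b differed by -1.13 and -0.45, the only members of that list above the floor. The 5 T cell markers had a median of -0.08, with the extremes Cd2 at 0.49 and Cd3d at -0.29. Of 3 neutrophil markers above the floor, S100a8 was higher (2.11) and Mmp9 lower (-1.69), and S100a9, under background with the high fat diet, was at least 2.80-fold lower. Endothelial markers, on a cell type that carries TLR4, were lower in 8 of 8 genes with a median of -0.44. Of 9 adipocyte markers 7 were lower, and their median was -0.13.

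Of the rest of the family, Tlr5 and Tlr12 lay above the floor. Tlr5, the receptor for bacterial flagellin, had 6.32 and 6.83, a difference of 0.51. Tlr12, a mouse receptor for profilin of parasites, had 5.77 and 5.64, a difference of -0.13. Tlr6, the other partner of TLR2 and the gene next to Tlr1, lay below the floor. It had 4.82, under background, with the normal diet and 5.70 with the high fat diet, at least 1.71-fold higher. Tlr11 was not analysed here.

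Of 9 genes for proteins that assist the receptors, 7 had a higher signal, with 3 past 2-fold and a median of 0.72. Lgmn, a protease that cleaves endosomal receptors, had 9.23 and 10.68, a difference of 1.46. Lbp, the plasma protein that brings lipopolysaccharide to CD14, had 10.75 and 12.08, a difference of 1.33. Hepatocyte markers had a median of -5.04 on the same arrays, with those under background taken at its limit. The cells that gave the Lbp signal were not tested. Ly86, which binds the receptor relative CD180, differed by 1.13 and the chaperone Hsp90b1 by -0.09. Unc93b1, which carries endosomal receptors to their compartment and is named outside the rule for choosing genes, had 9.51 and 10.23, a difference of 0.72. Cd180 itself, also outside the rule, differed by 0.90.

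Of 17 adaptors and kinases below the receptors 11 were higher and 6 lower, with a median of 0.29, and 7 lay within the middle 50% of all genes (-0.23 to 0.23). At 2-fold 2 were higher. These were Pik3ap1, an adaptor that links receptors to PI3 kinase (5.52 and 7.27, a difference of 1.75), and the kinase Btk (6.44 and 7.63, a difference of 1.19). Irak2, a kinase of the receptor complex, had 0.57 and its relative Irak1 -0.34. Myd88, the adaptor shared by most of these receptors and named outside the rule, had 8.57 and 8.75, a difference of 0.18. Ticam1, the adaptor of TLR3, also outside the rule, differed by 0.32.

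Of 11 transcription factors of the pathway 6 were higher and 5 lower, with a median of 0.03, and 4 were at least 2-fold higher. They were Atf3, a stress factor that damps receptor responses (2.71), Irf8 (1.17) and Irf5 (1.02, named outside the rule), both factors of myeloid cells, and the immediate early gene Fos (1.08). Jun, its partner, had -0.27. Of 11 negative regulators 8 were higher and 3 lower (median 0.18). Cd200r1, an inhibitory receptor of myeloid cells, had 5.72 and 7.65, a difference of 1.93. Tnip1 differed by 1.01 and Nfkbie by 0.35, both inhibitors of NF-kappaB signalling. Nfkbia, the main inhibitor of NF-kappaB and itself a target of it, had -0.30.

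Target genes went both ways. Of 25 listed, 14 lay above the floor, 11 of them higher and 3 past 2-fold (median 0.47). Saa3, an acute-phase protein, differed by 3.85, the interleukin 1 receptor antagonist Il1rn by 2.62 and the chemokine Ccl2 by 2.43. Ptgs2, the inducible cyclooxygenase, had 10.77 and 8.37, a difference of -2.41. The cytokine gene Tnf, named outside the rule, had 5.20 and 5.73, a difference of 0.53. The other 11 lay below the floor, among them Il1b (5.09 and 5.15), and Il6, which had 3.18 on both arrays, under background.

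**Figure D4:**
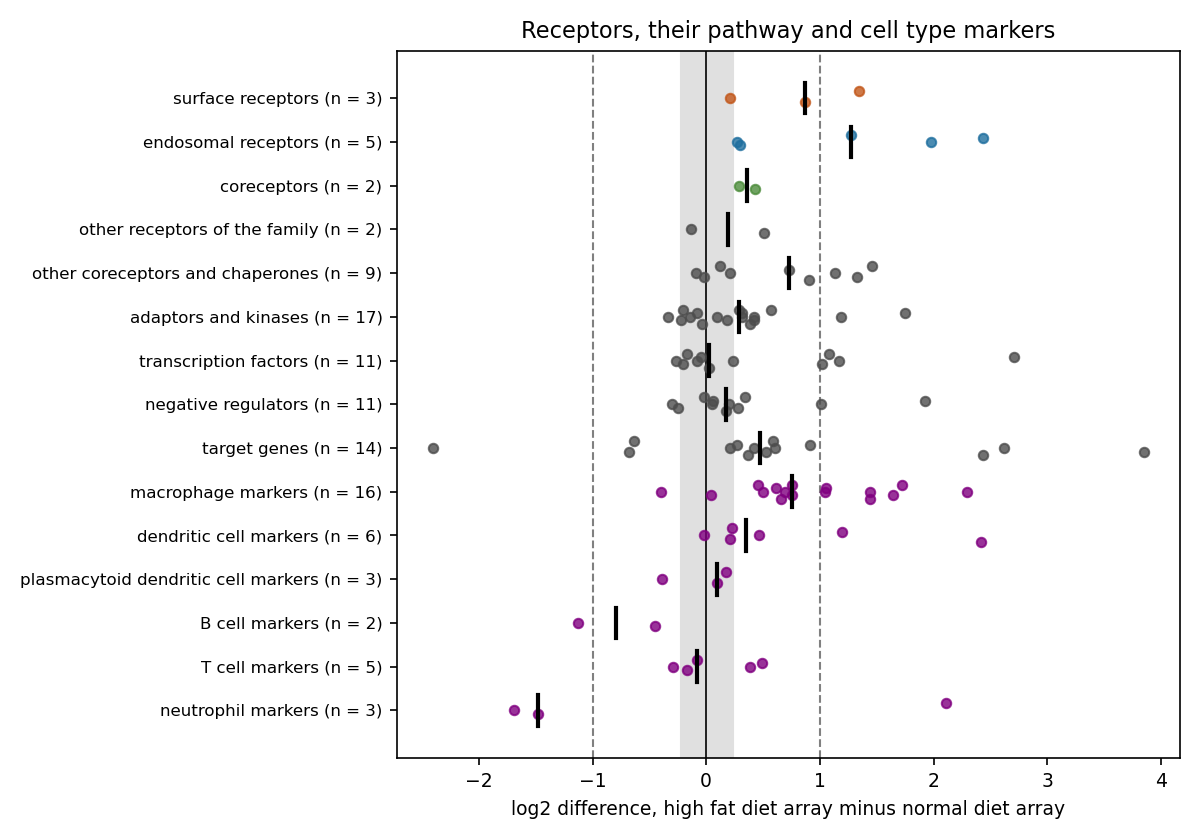
Log2 difference between the diets (horizontal axis) of each gene above the floor, by list, with black bars for list medians, dashed lines at 2-fold and a grey band for the middle 50% of all genes. S100a9, among the neutrophil markers, is drawn at its bound. The endosomal receptors have a median of 1.28, or 0.30 with the median over all probe sets of each gene, and their range overlaps that of the surface receptors, macrophage markers and target genes.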

How the data were processed

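The 2 arrays of mouse adipose tissue each held RNA pooled from 3 animals. The deposited values are log2 signals produced by the authors with RMA, which corrects background, normalizes across arrays and summarises each probe set, per the submitters' processing notes. Its version is not stated there, and the scale was read from the values (2.04 to 14.28). RMA makes both distributions nearly equal and compresses differences of dim probe sets.

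Of 45101 probe sets, 34958 had 1 gene symbol in GEO's platform annotation, 932 several and 9211 none. 34754 of the first were found by gene ID in RefSeq (GRCm38.p6), which changed no symbol, and 64 control probe sets were left out. The SD between probe sets came from 5131 genes with several above the floor. Where 1 value lay under background, the ratio printed is a bound computed against the background limit, also within list medians. Python 3.11.15, pandas 2.3.3 and statsmodels 0.14.6 were used.

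Genes outside the 10 were named by rule: of each pathway list and of the macrophage markers, the 3 farthest in the direction of the median and the 1 farthest the other way, up to 2 of other marker lists, and Adgre1, Cd68 and Csf1r always. Siglech, Klk1, Adipoq, Mmp9 and genes below the floor were also named outside it. The members and lists were chosen with earlier results of these data known. No gene was named for likeness of pattern, since 2 arrays give 1 difference. Alternatives changed the probe set rule, the floor, the background and the normalization.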

Additional observations from a re-analysis of the deposited data

How the results depend on the processing

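With 1 array per diet no array could be left out. No paired analysis was possible because each diet has 1 array and no test was made. The 9 alternatives were run. The result moved by less than the SD between probe sets in 39 of 45 values of the counts and medians. For the count the limit was 1.5 times. The same held for 82 of 83 differences of single genes. Much of this was fixed in advance. A changed floor can drop a member but cannot alter its difference. Raising values under background could not alter any either, as every value used lay above it. Leaving out probe sets ending in _s_at or _x_at could change Tlr3 alone (0.27 to 0.14). Centring each array lowered the differences by only 0.002. The tally is therefore not a measure of robustness. No sign changed. With the median of all probe sets of a gene, the median of the 10 genes was 0.36, that of the endosomal receptors 0.30 and the difference of Tlr7 0.11, since its other probe sets lie under background. With the floor at the 75th percentile of probe sets (7.60), only Tlr4, Tlr3 and Cd14 were left. Of these, 0 of 3 were at least 2-fold higher, where 2.74% of 6933 genes were, and 3 genes are too few to compare. The median of all members was then 0.27, that of the surface receptors 0.21 and that of the endosomal receptors 0.27. Over the alternatives that kept it, Tlr13 ran from 2.43 to 2.47, Tlr8 from 1.98 to 2.02, Tlr1 from 1.32 to 1.39 and Tlr2 from 0.87 to 0.90. Signal over background limits Tlr1 and Tlr9 most, which lay 0.20 and 0.53 above the limit on the normal diet array. Tlr8 and Tlr13 were also dim there, 0.63 and 0.90 above it.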

Other observations

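Some genes of the pathway had a mean of both arrays below the floor and so did not enter the comparison. Among them, Cxcl2 and Rel were under background on the normal diet array but not on the high fat diet array. Cxcl2, a chemokine that draws neutrophils, had 3.69 and 5.33, at least 1.33-fold higher. Rel, the c-Rel subunit of NF-kappaB, had 3.89 and 5.15, at least 1.18-fold higher. Nos2, the inducible nitric oxide synthase of activated macrophages, and Ifnb1, the interferon beta gene, were under background on both arrays.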
